A study of Rattus norvegicus with 36 samples.

Results

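The glucocorticoid receptor (GR) regions described here are those that were already called as peaks in rats that received vehicle and that overlapped no region of phosphorylated CREB (pCREB). They were chosen in the merged region list as GR regions on chromosomes 1 to 20 or X that shared no base with a pCREB region and carried a peak call in 2 or more of the 8 vehicle GR libraries. This gave 519 regions, of 1052 GR regions without pCREB on these chromosomes and of 5307 GR regions in all. The remaining 533 GR regions without pCREB had 0 or 1 vehicle call, and 4234 GR regions on these chromosomes overlapped pCREB. Vehicle calls thus chose the regions, so their vehicle signal is a description and their difference between corticosterone and vehicle is not independent of the choice.

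GR is a nuclear receptor that rests in the cytoplasm with chaperone proteins and moves into the nucleus after it binds a glucocorticoid. There it binds DNA at glucocorticoid response elements, or through other factors, and raises or lowers the activity of nearby genes. The hippocampus, which forms memories of places and events, is rich in GR and also holds the mineralocorticoid receptor, which binds corticosterone more tightly. Corticosterone is the main glucocorticoid of rats and is made by their own adrenal glands.

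GR and pCREB binding was measured by ChIP-seq, which sequences the DNA that an antibody pulls down, in hippocampus of male Sprague-Dawley rats. The 4 conditions were no training with vehicle, no training with corticosterone, training with vehicle and training with corticosterone, with 4 GR libraries each, named A to D. Each library came from a separate chromatin pool of 4 hippocampi from 2 rats, which was divided between the GR and the pCREB antibody. Per the labels, each condition had its own sequencing lane, 5 to 8, so lane and condition cannot be told apart; the labels used here give no dose, time of killing or training task. The tissue is a mixture of cell types, so binding in fewer cells and weaker binding per cell cannot be told apart, and expression markers of the hippocampus were not examined because the values are ChIP counts.

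GR libraries held 55254 to 173176 reads in the listed regions, with a median of only 8 to 36 reads at a member region. Untrained vehicle B was the shallowest library. It had 666 peak calls over all GR regions, and untrained vehicle A had 196 and untrained corticosterone B 513, against 1966 to 4849 in the other 13 libraries. Untrained corticosterone B was also the 1 of 16 libraries whose own count column was not the highest at its own called regions: relative to each library's mean over all regions, untrained vehicle B was 1.61 log2 units up there and untrained corticosterone B 1.40. Untrained vehicle B gave 20.3% of its reads to the 519 regions, against 4.39% to 15.6% in the other libraries, and 49.9% of its peak calls. Counts that move by over 1.5 times without one of these libraries are given with and without it.

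Most members sat close to the edge of the rule. Of the 519, 193 had 2 vehicle calls, 126 had 3, 102 had 4, 58 had 5, 27 had 6, 10 had 7 and 3 had all 8. Just inside the threshold, regions with 2 vehicle calls had a median of 102 CPM in vehicle and 129 CPM under corticosterone. Just outside it, the 255 regions with 1 call had medians of 83.5 and 114 CPM. CPM is edgeR's count per 1e6 reads in the tested GR regions after TMM scaling, which corrects for differences in library makeup.

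The members were peaks under corticosterone as well. They were called in a median of 6 of the 8 corticosterone libraries, against 5 over all GR regions. All 8 called 102 members (19.65%), against a background of 6.05% over all GR regions. Most members entered the deposited list through corticosterone calls, so these counts are a description. The deposited list holds regions with calls in at least 3 libraries of some condition, and 359 members met this only through a corticosterone condition, 141 through conditions of both treatments, and 19 only through a vehicle condition. In untrained vehicle libraries A to D the numbers of members called were 18, 332, 129 and 273. In trained vehicle they were 328, 347, 102 and 189. In untrained corticosterone they were 427, 181, 306 and 448, and in trained corticosterone 373, 493, 331 and 486. Trained vehicle B, with 347 calls, lay above 3 of the 8 corticosterone libraries, so the treatments overlapped in these counts.

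**Figure D1:**
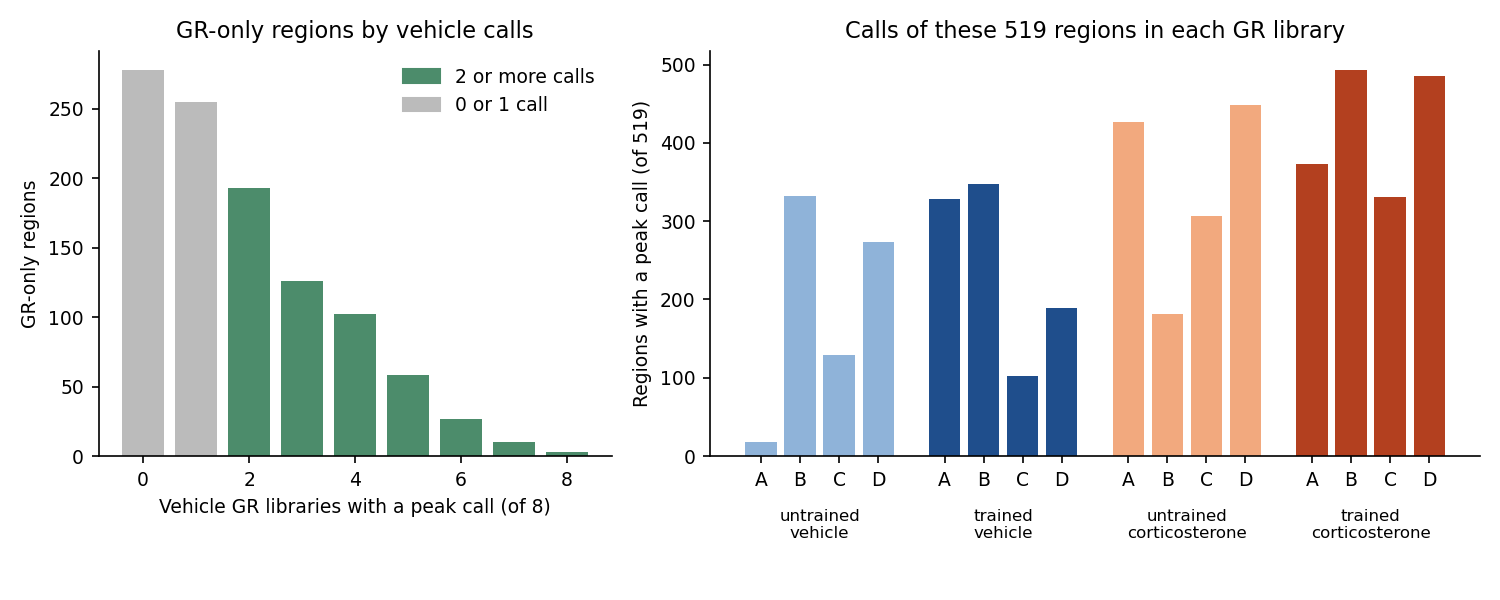
Left, number of GR regions without pCREB (vertical axis) by the number of the 8 vehicle libraries with a peak call (horizontal axis), with the 519 members in green and the 533 others in grey. Right, number of the 519 members with a peak call in each GR library, coloured by condition; untrained vehicle A had 18 and trained corticosterone B had 493.

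The members were narrow and spread over the genome. Their median width was 328 bp, against 287 bp for GR regions without pCREB with 0 or 1 vehicle call and 421 bp for those that overlapped pCREB. The nearest pCREB region lay at a median distance of 40136 bp, with 26 members closer than 1 kb. When members less than 20 kb apart were joined, 467 stood alone, 9 groups held 2 members, 2 groups held 3, and a single group on chromosome 9 held 28. Chromosome 1 held the most members, 59 of its 533 GR regions, and chromosome X held 4 of 26. Gene names, introns and exons, and DNA motifs were not analysed here, since no genome or annotation of the files' build, rn6, was used.

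The 10 regions with the most vehicle calls were taken with ties broken by higher mean CPM over the 16 libraries. Their high signal is therefore partly set by the choice. Of the 3 called in all 16 libraries, chr20:8097172-8097598 was the strongest. Its CPM were 353, 1805, 175 and 854 in untrained vehicle A to D and 497, 797, 196 and 578 in trained vehicle. They were 1302, 969, 618 and 1367 in untrained corticosterone and 732, 988, 654 and 672 in trained corticosterone. The lowest corticosterone library lay above 5 of the 8 vehicle libraries, but untrained vehicle B was the highest of all 16. The mean was 657 ± 527 CPM in vehicle and 913 ± 295 CPM under corticosterone (SD, n = 8 each), a difference of 0.50 on the log2 scale (SE 0.37, adjusted p = 0.615).

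At chr11:79117933-79118454, a region of 522 bp, the vehicle libraries had 280, 1187, 135 and 615 CPM untrained and 446, 703, 254 and 403 CPM trained. Under corticosterone the values were 797, 656, 305 and 901 CPM untrained and 466, 557, 505 and 602 CPM trained. The treatments overlapped over most of their range, at a log2 fold change of 0.28 (SE 0.34) and an adjusted p of 0.778. The region stood far from others, with the nearest pCREB region 461814 bp away. At chr9:21191864-21192205 the means were 493 ± 307 CPM in vehicle and 589 ± 219 CPM under corticosterone (SD, n = 8 each), with a log2 fold change of 0.26.

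The next 7 regions were those with the highest mean CPM of the 10 with 7 vehicle calls. All had 8 corticosterone calls, and in each the missing call was in an untrained vehicle library. They were chr8:53055124-53055759, chr1:266679512-266679904, chr20:29532154-29532660, chr13:90674404-90674796, chr9:41076449-41076899, chr8:100172772-100173400 and chr12:24028195-24028472. The first had the highest mean of the 10, with 366, 2494, 183 and 1063 CPM in untrained vehicle and 669, 913, 376 and 578 CPM in trained vehicle. Its corticosterone values were 1628, 1239, 409 and 2028 CPM untrained and 1057, 1035, 903 and 1128 CPM trained, so untrained vehicle B again exceeded every corticosterone library. Members at chr8:53068647-53069388 and chr8:53071444-53071889 stood beside it, with mean vehicle signals of 714 and 281 CPM.

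None of these 10 regions passed the test for corticosterone, with log2 fold changes of 0.26 to 0.69 and adjusted p of 0.265 to 0.778. All 10 had their highest vehicle value in untrained vehicle B and their lowest in library C of one of the vehicle conditions. Vehicle calls chose these 10 regions, so this order is a description. Without untrained vehicle B, 2 of them passed: chr20:29532154-29532660 with a log2 fold change of 0.94 (adjusted p = 0.0434) and chr8:100172772-100173400 with 0.87 (adjusted p = 0.0207).

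For corticosterone against vehicle, a small part of the members passed the test. Of the 519, 504 had enough reads to be tested; the 15 others had 89 to 139 reads over all 16 libraries and 2 to 4 vehicle calls. For corticosterone against vehicle, averaged over training, 12 of 504 members rose and 0 fell in edgeR's quasi-likelihood test at an adjusted p under 0.05. The background over all 4968 tested GR regions was 1.65% higher and 0.0201% lower, and the members' own share was 2.38%; vehicle calls chose the members, and 359 of the 519 entered the list only through calls in a corticosterone condition, so nothing is read from this comparison or from its direction. The median log2 fold change was 0.39 over tested members, -0.07 over all tested regions, 0.71 over the regions with 0 or 1 vehicle call and -0.11 over those that overlapped pCREB. By DESeq2, 18 members passed, against a background of 1.96% in either direction. By edgeR at an unadjusted p under 0.05, 100 did, 19.8% against a background of 12.5%, and without untrained vehicle B 268 did, 52.5% against 19.7%.

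The count of 12 depended on single libraries, above all on untrained vehicle B. Without it, 99 members rose and 1 fell of 510 tested, against a background of 6.13% higher and 0.473% lower, and the median rose to 0.70. All 12 regions that rose with the library were among the 99. The region that fell, named after its value was seen, was chr1:279984159-279984613. Without untrained vehicle A 7 members passed and without untrained corticosterone D 8, against backgrounds in either direction of 1.04% and 1.07%. Without untrained vehicle C 9 passed and without untrained corticosterone B 13, against 1.11% and 1.36%. Without untrained corticosterone C 27 passed and without trained vehicle B 19, against 2.95% and 2.09%. Without untrained vehicle A and B and untrained corticosterone B together, 50 rose and 1 fell, against a background of 3.86%. With library totals in place of TMM scaling, 26 rose and 0 fell, against 2.52%. The background, which includes the members, moved in the same direction as the members' count in these refits, except without untrained corticosterone B. Without untrained vehicle B, the share that rose went from 2.38% to 19.4% of members and from 1.65% to 6.13% of all tested regions. It went from 15.1% to 37% of regions without pCREB with 0 or 1 vehicle call. Among regions that overlapped pCREB it went from 0.247% to 1.29%. The jump is thus not particular to the members.

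**Figure D2:**
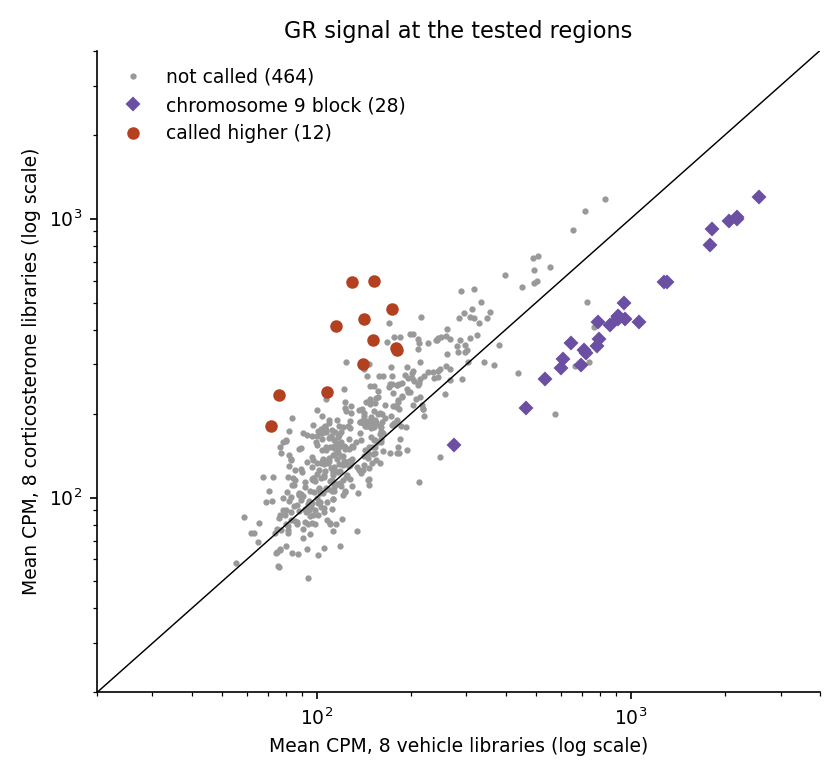
Mean CPM of the 8 corticosterone libraries against mean CPM of the 8 vehicle libraries, both on log scales, for the 504 tested members; the line marks equal values. The 12 regions that passed the test lie above the line, and the 28 regions of a chromosome 9 block lie below it at high signal.

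The largest rise was at chr20:7998838-7999373. Its CPM were 12.2, 404, 63.6 and 167 in untrained vehicle and 77.2, 147, 49.1 and 120 in trained vehicle. They were 882, 458, 270 and 909 in untrained corticosterone and 624, 597, 427 and 591 in trained corticosterone. Untrained vehicle B was the only vehicle library that overlapped the corticosterone range, where it lay above untrained corticosterone C. The means were 130 ± 122 and 595 ± 219 CPM (SD, n = 8 each), a 5.08-fold rise (log2 2.35, SE 0.42, adjusted p = 0.0046). This region lies 97.8 kb from chr20:8097172-8097598, with no member between them. The strongest member called in every library and the member with the largest rise are thus adjacent members on chromosome 20. Only members were counted between them, and the median distance from a member to its nearest GR region was 82775 bp.

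At chr1:78999395-78999862, GR signal was 60.9, 356, 31.8 and 344 CPM in untrained vehicle and 111, 168, 49.1 and 98.1 CPM in trained vehicle. It was 771, 739, 453 and 901 CPM in untrained corticosterone and 458, 464, 462 and 521 CPM in trained corticosterone. This was the 1 tested member whose 8 corticosterone values all lay above its 8 vehicle values, 0.198% of members against a background of 0.322%; the reverse order was seen at 0 members, against a background of 0.0403%. The rise was 4.16-fold (log2 2.06, SE 0.36, adjusted p = 0.00312). The 4 trained corticosterone libraries lay close together, at 476 ± 29.7 CPM, while the untrained ones spread over 716 ± 189 CPM (SD, n = 4 each).

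At chr5:125767789-125768261 the vehicle libraries had 24.4, 309, 47.7 and 240 CPM untrained and 103, 126, 16.4 and 54.5 CPM trained. Corticosterone libraries had 668, 364, 270 and 662 CPM untrained and 333, 345, 270 and 385 CPM trained, a 4.01-fold rise (adjusted p = 0.0152). Again only untrained vehicle B reached into the corticosterone range. The regions chr10:64458325-64458655 and chr1:201515758-201516104 rose 3.54-fold and 3.31-fold, from means of 75.7 ± 67.0 and 142 ± 95.7 CPM to 233 ± 101 and 437 ± 146 CPM (SD, n = 8 each).

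The smaller rises were at chr13:71606937-71607641 (2.84-fold), chr4:149076668-149076918 (2.62-fold), chr8:48415896-48416281 (2.54-fold), chr3:92228935-92229193 (2.34-fold) and chr7:77434254-77434631 (2.28-fold). The remaining pair, chr17:30181309-30181837 and chr8:108758063-108758377, rose 1.97-fold and 1.96-fold. At chr8:48415896-48416281 the vehicle values were 122, 285, 63.6 and 146 CPM untrained and 163, 241, 131 and 54.5 CPM trained, and the corticosterone values 480, 521, 253 and 494 CPM untrained and 275, 338, 263 and 325 CPM trained. There, the lowest corticosterone value lay below only 1 vehicle value, that of untrained vehicle B.

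Of the 12, 7 passed under all 23 refits that changed the scaling, the tool or the libraries: the first 5 above, chr4:149076668-149076918 and chr8:48415896-48416281. The 5 others lost the call when certain single libraries were left out. Leaving out untrained vehicle A ended the call at each of these 5, with an adjusted p of 0.0535 at chr3:92228935-92229193 and 0.0841 at chr7:77434254-77434631. Leaving out untrained corticosterone D ended it at chr13:71606937-71607641 (adjusted p = 0.0526). The call at chr7:77434254-77434631 was lost in 8 refits, those without untrained vehicle A or C, untrained corticosterone A, B or D, or trained corticosterone A, B or D. That at chr8:108758063-108758377 was also lost in 8, those without untrained vehicle A or C, untrained corticosterone A or D, trained vehicle C or D, or trained corticosterone A or B. That at chr17:30181309-30181837 was lost in 10, those without untrained vehicle A, C or D, untrained corticosterone A or D, trained vehicle C or D, or trained corticosterone A, B or D. The log2 fold changes of all 12 stayed positive, at 0.85 or more.

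**Figure D3:**
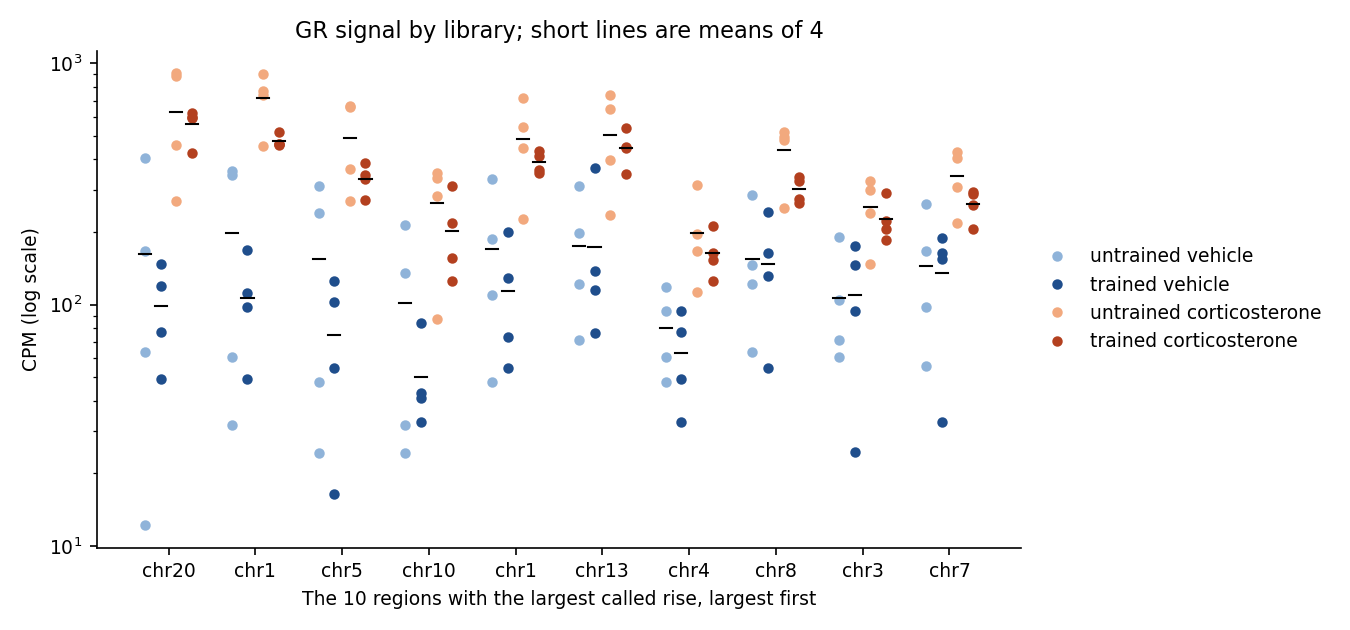
GR signal in CPM (log scale) of each library at the 10 members with the largest rise that passed the test, ordered by fold change and marked by chromosome; points are libraries and short lines the means of 4. Corticosterone means lie above vehicle means of the same training at all 10 regions, which were chosen by their rise averaged over training. The highest vehicle point is an untrained one at 9 of them.

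Of the tested members with 2, 3, 4 and 5 vehicle calls, 4 of 184, 4 of 122, 3 of 100 and 1 of 58 rose. None of the 27 with 6 calls, the 10 with 7 and the 3 with 8 passed the test, and the background was 1.65% higher. Without untrained vehicle B, 99 members rose, among them chr20:29532154-29532660 and chr8:100172772-100173400, which had 7 calls each. Those 99 are not split by vehicle calls here. Vehicle calls belong to the rule and follow vehicle signal, so these counts are a description. By treatment effect within training, all 12 were positive in untrained rats, with log2 fold changes of 1.11 to 2.16, and in trained rats, with 0.68 to 2.53. The 12 were chosen by the average of the untrained and trained effects, so their shared direction is a description. In untrained rats alone 1 member passed, chr8:48415896-48416281 (log2 1.67, adjusted p = 0.0472), against a background of 0.302%. In trained rats alone 0 passed by edgeR, against a background of 0.121%, and 29 had an unadjusted p under 0.05 (5.75%, background 6.72%). The difference between trained and untrained rats was itself tested, as the interaction given below.

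In all, 9 members were called in under 3 corticosterone libraries and so entered the list through a vehicle condition. That choice favours low values under corticosterone, so their differences are a description: the 8 that were tested had log2 fold changes of -0.84 to -0.06, with adjusted p of 0.109 to 0.949. The lowest was chr1:279984159-279984613, with 119 ± 28.8 CPM in vehicle and 67.2 ± 22.0 CPM under corticosterone (SD, n = 8 each). Without untrained vehicle B this was the region that passed as lower (log2 -0.87, adjusted p = 0.0395).

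Training under corticosterone was compared between 4 trained and 4 untrained libraries, neither of which entered the vehicle rule, although calls in these libraries had admitted most members to the deposited list. Of 504 tested members, 0 passed in either direction by edgeR, against a background of 0%, and 0 by DESeq2. At an unadjusted p under 0.05 there were 22 (4.37%), against a background of 3.70%. Left-out libraries moved this count both ways: it was 6 without untrained corticosterone D (background 2.29%), 12 and 11 without trained corticosterone B and C (3.21% and 2.85%), 43 without untrained vehicle B (5.28%) and 47 without untrained corticosterone C (6.70%). The members' log2 fold changes, trained minus untrained, were negative for 415 and positive for 89 (17.7%). The positive share was 48.3% over all tested regions, 26.4% over regions without pCREB with 0 or 1 vehicle call and 54.4% over those that overlapped pCREB. All regions share the same libraries, so these are not independent counts. The members' median was -0.41, against -0.02, -0.24 and 0.04 over these 3 sets. The median was -0.15 without untrained corticosterone D and -0.57 without untrained corticosterone C.

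The untrained corticosterone libraries differed more among themselves than the trained ones. The median log2 CPM over the 476 tested members outside the chromosome 9 block was 7.63, 7.52, 6.93 and 8.13 in untrained corticosterone A to D. It was 7.24, 7.29, 7.11 and 7.49 in trained corticosterone. The trained values lay inside the untrained range. In vehicle the medians were 6.85, 8.35, 6.19 and 7.05 untrained and 7.19, 7.53, 6.51 and 6.85 trained, so untrained vehicle held both the highest and the lowest library of the 16. Regions without pCREB and with 0 or 1 vehicle call ran from 5.73 to 7.47 over the 16 libraries, with untrained vehicle C lowest in both sets. Regions that overlapped pCREB ran from 7.09 to 7.36. They made up 4045 of the 4968 regions from which TMM scaling was computed. Their narrow range is therefore partly set by the scaling and is a description.

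**Figure D4:**
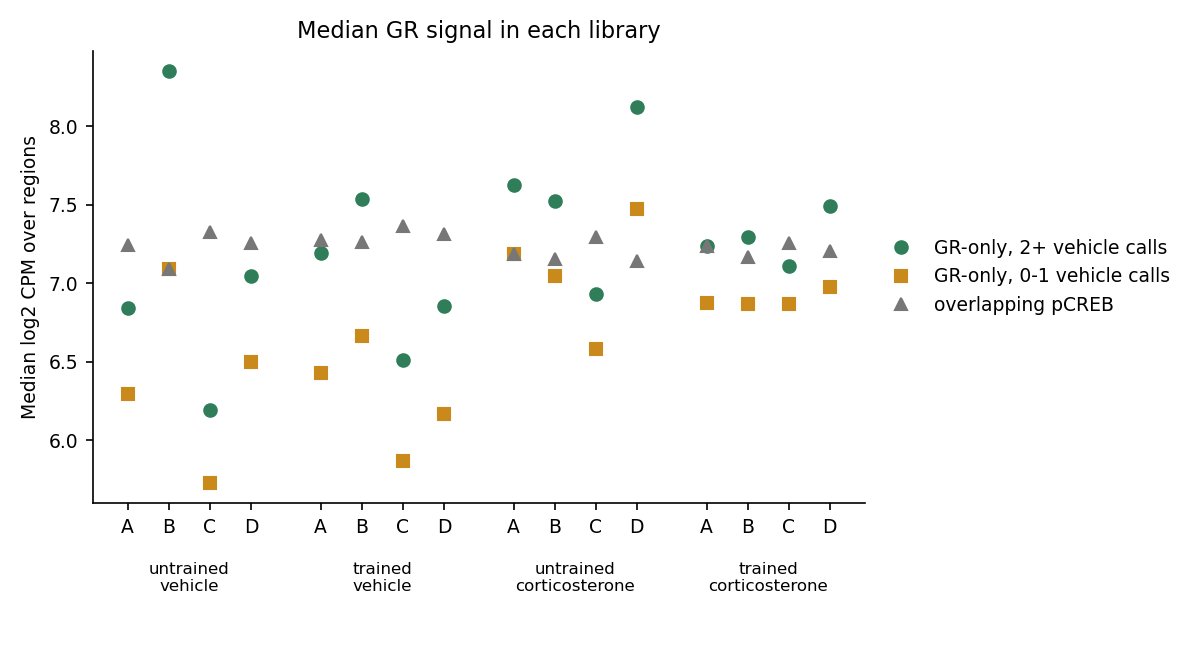
Median log2 CPM in each GR library over tested members outside the chromosome 9 block (circles), tested regions without pCREB and with 0 or 1 vehicle call (squares) and tested regions that overlapped pCREB (triangles). Circles range from 6.19 in untrained vehicle C to 8.35 in untrained vehicle B, and triangles from 7.09 to 7.36. TMM scaling rests mostly on the regions shown as triangles, so their range is partly set by it.

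Single libraries set the highest value of many members. Of the 476, 348 had their highest vehicle value in untrained vehicle B and 246 their highest value of all 16 there, while untrained corticosterone D was the highest of 16 at 108. Vehicle calls chose the members, and untrained vehicle B made 304 calls at members outside the block. The rule thus favours high values in this library, so its counts here and its read share below are a description. No share over all tested regions is given for these counts. The SD of log2 CPM within a condition had a median of 0.77 over the 476 members, 0.70 over regions with 0 or 1 vehicle call and 0.44 over regions that overlapped pCREB. TMM scaling rests mostly on the last of these sets. Untrained vehicle B gave 13.6% of its reads and untrained corticosterone D 14.6% to members outside the block, against 3.54% to 12.01% in the other libraries; the part of this share in the differences between conditions was not tested.

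The members with the smallest p for training under corticosterone did not pass after adjustment (0.966 each). At chr7:52734589-52734845, 274, 219, 235 and 269 CPM in untrained corticosterone stood against 99.9, 166, 114 and 70.5 CPM in trained corticosterone. The groups did not overlap, with a log2 fold change of -1.15 (SE 0.32). In vehicle its values were 36.6, 119, 103 and 135 CPM untrained and 146, 199, 73.6 and 131 CPM trained, where they overlapped. At chr2:210657001-210657309 the means were 244 ± 66.5 CPM untrained and 113 ± 28.6 CPM trained (SD, n = 4 each), with a log2 fold change of -1.11.

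The opposite direction was seen at chr7:36475171-36475434, which lies 137 bp from a pCREB region. It had 34.3, 41.7, 26.1 and 36.4 CPM in untrained corticosterone and 74.9, 86.2, 114 and 86.8 CPM in trained corticosterone, again without overlap (log2 1.37, SE 0.38). Its vehicle values, 97.5, 119, 71.5 and 72.9 CPM untrained and 85.8, 83.9, 90.0 and 76.3 CPM trained, were near those of trained corticosterone. All 4 trained values lay below all 4 untrained values under corticosterone at 11 members (2.18%, background 1.75%) and above them at 4 (0.794%, background 1.99%). Those 4, named after their values were seen, were chr7:36475171-36475434, chr1:264950528-264950892, chr1:56560527-56560944 and chr14:62067274-62067580.

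Training in vehicle and the interaction gave no calls either. For training in vehicle 0 of 504 passed by edgeR (background 0%) and by DESeq2, with 10 at an unadjusted p under 0.05 (1.98%, background 3.06%). That count was 16, 35 and 38 without untrained vehicle A, B and C (backgrounds 3.58%, 4.67% and 4.87%), and 18 and 37 without trained vehicle B and D (3.33% and 3.39%). The median log2 fold change of the members was -0.14, and it turned to 0.35 without untrained vehicle B and to 0.05 without trained vehicle C. The smallest p values were at chr9:12951612-12951931 (log2 1.68, SE 0.61), chr1:82593909-82594136 (1.11, SE 0.41) and chr6:118485602-118485893 (0.87, SE 0.34), all higher with training and all with an adjusted p of 0.998.

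For the interaction 0 of 504 members passed by edgeR and DESeq2 and 12 had an unadjusted p under 0.05 (2.38%, background 3.70%). That count was 77 without untrained vehicle B (15.1%, background 7.28%), 36 without trained vehicle D (4.06%), 27 without trained vehicle C (4.85%), 24 without untrained corticosterone C (5.08%) and 63 without the 3 libraries with few peak calls (6.36%). The median interaction was -0.17 on the log2 scale, -0.70 without untrained vehicle B and turned to 0.14, 0.05 and 0.07 without untrained vehicle C, untrained corticosterone D and trained vehicle B, and 0 members passed after adjustment in each of these refits. At chr3:162584796-162585036, which had the smallest p, the vehicle values were 48.8, 0, 55.6 and 52.1 CPM untrained and 129, 105, 73.6 and 76.3 CPM trained. Under corticosterone they were 137, 93.7, 192 and 182 CPM untrained and 83.2, 73.0, 92.4 and 92.2 CPM trained, so the trained group was higher in vehicle and lower under corticosterone (interaction log2 -1.90, SE 0.54, adjusted p = 1.00). Untrained vehicle B, the highest vehicle library at most members, was at 0 there. It was also the shallowest library in total reads. Its median of 13 reads per member lay within the range of 8 to 36 over all libraries, so low values rest on few reads there as in others.

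A block of 28 members on chromosome 9 lay apart from the others in position, in signal and in its spread between libraries. It spans chr9:119684816-119807130, which is 122315 bp, and holds 28 GR regions, all of them members, and 0 pCREB regions. The next GR region lies 516077 bp to the left, and none was listed to the right. The nearest pCREB regions lie 22287 bp to the left and 10891 bp to the right. Of the 36 tested members with a mean above 500 CPM, 22 lay in this block.

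The block was strong in some libraries and almost absent in others of the same condition. Its 28 regions together held 465, 3692, 4720 and 4252 reads in untrained vehicle A to D and 102, 184, 40 and 5872 reads in trained vehicle. They held 3519, 2987, 39 and 1430 reads in untrained corticosterone and 395, 3682, 58 and 2701 reads in trained corticosterone. The lowest library of each condition thus had 39 to 465 reads and the highest 3519 to 5872, so that the difference between libraries ran across the conditions. Each GR library came from its own pool, so differences between pools and between libraries cannot be told apart. As a share of GR reads the block took 6.68% in untrained vehicle B, 5.61% in trained vehicle D and 0.0352% in trained vehicle C.

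All regions of the block rose and fell together. Over the 16 libraries, deviations of log2 CPM from the condition means correlated between block regions with Pearson r of 0.90 to 1.00 in all 378 pairs (median 0.98); the points share their libraries and depth, and the value is a description. The SD within a condition was 1.78 to 2.68 log2 units at the 28 regions, against a highest value of 1.74 among the members outside. Such spread also occurred outside the members: regions that overlapped pCREB reached 2.65, with 5 of 4045 above 1.5. In trained vehicle C, 10 of the 28 regions had 0 reads and the most at any was 6, while in trained vehicle D they had 56 to 501 reads. Peak calls followed: 12, 28, 28 and 28 in untrained vehicle, 0, 6, 0 and 28 in trained vehicle, 28, 28, 0 and 26 in untrained corticosterone and 11, 28, 0 and 28 in trained corticosterone.

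**Figure D5:**
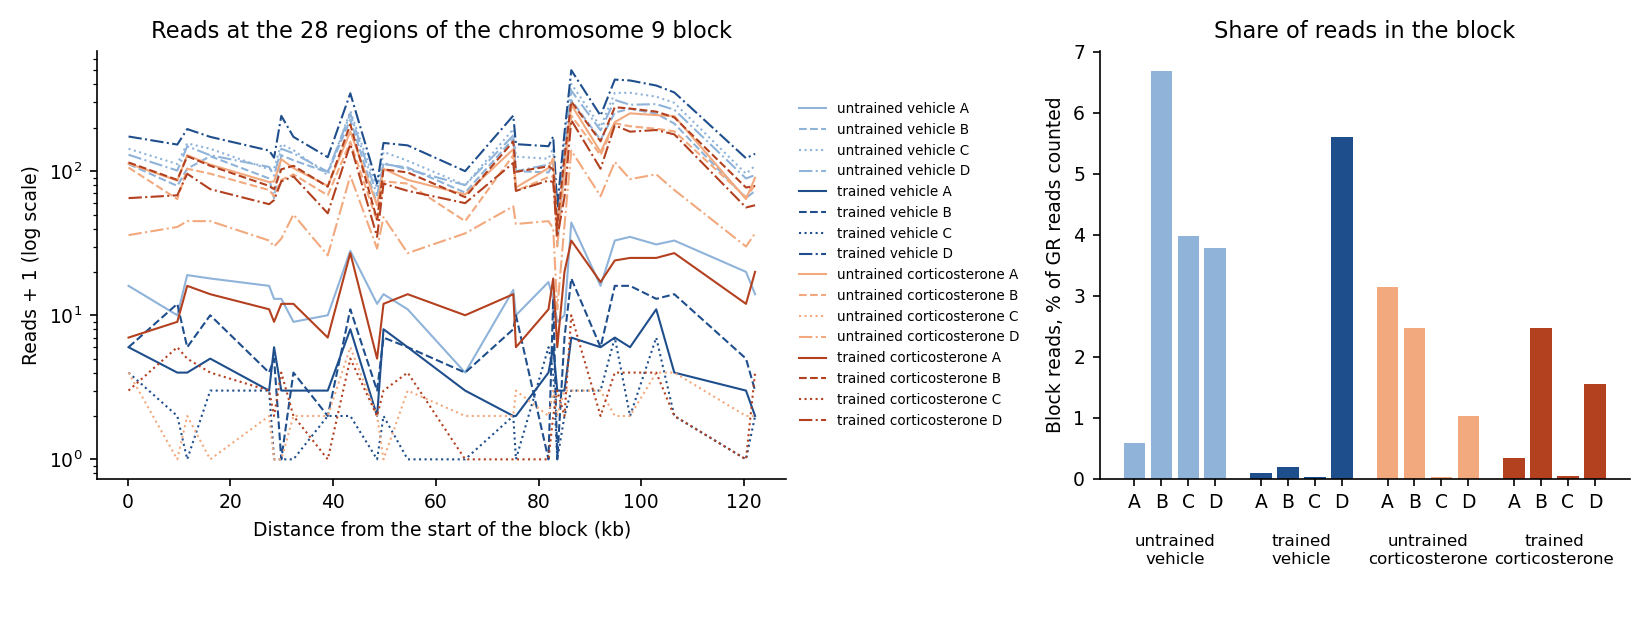
Left, reads plus 1 (log scale) in each GR library at the 28 regions of the chromosome 9 block against the distance of each region's centre from the start of the block in kb; colours are conditions and line styles libraries. Right, block reads as a percent of the GR reads counted in each library; values run from 0.0352% in trained vehicle C to 6.68% in untrained vehicle B, and high and low libraries occur within every condition.

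No region of the block passed a test. For corticosterone against vehicle the 28 log2 fold changes were -1.25 to -0.61 (median -0.96), with a median SE of 1.10. At chr9:119714561-119714887 the values were 146, 3040, 1216 and 1480 CPM in untrained vehicle, 17.2, 0, 0 and 2626 CPM in trained vehicle, 1028, 896, 0 and 240 CPM in untrained corticosterone and 91.5, 676, 21.3 and 455 CPM in trained corticosterone. Its log2 fold change of -1.25 turned to 2.06 without trained vehicle D, and that of chr9:119723616-119723925 from -1.05 to 1.34. The direction at these regions therefore rested on a single library. Without the block, the median log2 fold change for corticosterone was 0.41 over 476 members, and the 12 regions that passed were all outside it.

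The pCREB libraries of the same pools gave no listed region in the block. Peak calls in the deposited table carry a number that rose with position along the genome in all 198519 steps examined, so numbers missing between the listed pCREB regions on both sides count calls that reached no listed region, anywhere in that gap. For pCREB this count was 28 in trained vehicle B and 29 in trained vehicle D, 11 in untrained corticosterone B, 8 in untrained vehicle D and in trained corticosterone B, 6 in untrained corticosterone A and 5 in untrained vehicle C. It was 0 in untrained vehicle B, untrained corticosterone C, trained vehicle A and trained corticosterone D, and could not be counted in 5 pools without a listed call on the right. GR and pCREB calls did not follow each other in every pool: untrained vehicle B had 28 GR calls in the block and no pCREB number missing, and trained vehicle B had 6 GR calls and 28 pCREB numbers missing.

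The region outside the block with the most similar pattern was chr1:265469322-265469937, which overlaps pCREB and is no member (r = 0.99 with the block's reference region chr9:119770969-119771415, n = 16 libraries). It had 86, 484, 539 and 598 reads in untrained vehicle, 45, 39, 15 and 637 in trained vehicle, 631, 452, 23 and 392 in untrained corticosterone and 101, 485, 25 and 390 in trained corticosterone. The same libraries were high and low as in the block.

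A second set of members varied together between libraries in another pattern. It holds chr16:9089102-9089414, chr2:242007808-242008122, chr1:219008152-219008442 and chr1:244870838-244871148, of which the last 3 had r of 0.96 to 0.98 with the first over 16 libraries, against a median of -0.08 for all other tested regions. These 4 were picked by this likeness, so r is a description. At chr16:9089102-9089414 the values were 73.1, 1045, 39.7 and 1574 CPM in untrained vehicle and 154, 850, 57.3 and 817 CPM in trained vehicle. They were 171, 250, 166 and 196 CPM in untrained corticosterone and 49.9, 597, 21.3 and 141 CPM in trained corticosterone. Libraries B and D of both vehicle conditions and trained corticosterone B were high, and the others low.

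Regions with r of 0.92 to 0.99 to the first were 4 on unplaced sequences and chr18:37041424-37041732 and chr16:58844772-58845085, which overlap pCREB; the order among their high libraries differed. Log2 fold changes for corticosterone were -1.48 (SE 0.84, adjusted p = 0.517) at chr16:9089102-9089414, -1.23 (SE 0.66) at chr2:242007808-242008122 and -1.12 (SE 0.80) at chr1:219008152-219008442. These 3 and the 2 block regions above were the lowest among the members with a mean CPM above the members' median, and none passed the test.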

How the data were processed

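The deposited table holds raw read counts, in whole numbers, for each merged region and library, with peak call names for every region, per the file headers. Per the submitters' processing notes the authors used HTSeq 0.6.1-1, bedtools 2.26.0, MACS2 2.1.1.20160309 and BWA 0.7.10 on rn6; settings were not given in the sources used here. Libraries were amplified with 15 PCR cycles and counts carry no molecular identifiers. Overlaps were computed with GenomicRanges 1.54.1.

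Counts of all GR regions in the 16 GR libraries were fitted with edgeR 4.0.16 (R 4.3.3; filterByExpr by condition, TMM, robust quasi-likelihood fit, 4 groups, no covariates). P-values were adjusted by Benjamini-Hochberg over 4968 regions and the threshold was 0.05. DESeq2 1.42.0 was an alternative. Log2 fold changes are corticosterone minus vehicle or trained minus untrained. The script was tested on simulated counts. Duplicate libraries were not found within conditions, with a chi-square per degree of freedom of 1.79 or more over 24 pairs.

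Named were the 10 members with the most vehicle calls (ties by higher mean CPM over 16 libraries) and the 10 with the largest rise that passed. Also named were every one that passed as lower, the 5 lowest for corticosterone above the median CPM, and the 3 with the smallest p for each training comparison. The other 2 that passed, neighbours, the block and the co-varying set were named after their values were seen. Members and rules were chosen with earlier results of these data known. Inputs and pCREB counts were not used. Names by gene and tests of hippocampal markers were not made because no rn6 annotation was used.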

Additional observations from a re-analysis of the deposited data

Results flagged for a closer look

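In 9 of 144 groups of 4 libraries looked at, 1 library stood apart from the other 3 by a gap above Dixon's critical value for 4 values; chance alone flags about 1 group in 20. High libraries were untrained vehicle B at chr1:266679512-266679904 (1401 CPM, next 427), trained corticosterone D at chr1:78999395-78999862 (520.5 CPM, next 464), untrained corticosterone D at chr6:118485602-118485893 (145 CPM, next 95.8), and trained vehicle D in the chromosome 9 block, with 2626 CPM at chr9:119714561-119714887, 1351 CPM at chr9:119723616-119723925 (next 17.2 at both) and 5.61% of reads in the whole block (next 0.193%). Low libraries were trained corticosterone C at chr20:7998838-7999373 (427 CPM, next 591) and untrained corticosterone C at chr8:48415896-48416281 (253 CPM, next 480). Untrained vehicle B, the shallowest library, was low at chr3:162584796-162585036 (0 CPM, next 48.8), where values rest on few reads.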

How the results depend on the processing

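The number of members that passed for corticosterone, 12, moved by over 1.5 times under 9 of 28 alternatives: to 26 with total counts in place of TMM, 31 with the library letter as a replicate block, 51 without the 3 libraries with few peak calls, 5 at an adjusted p under 0.01 and 26 when 1 vehicle call sufficed, and between 7 and 100 when single libraries were left out (7 without untrained vehicle A, 100 without untrained vehicle B). The cause was not tested, except that the last 2 rules change the threshold or the regions counted. Same-letter libraries of different conditions had r of -0.20 to 0.49 (11 of 24 pairs above 0.1), and 5 of 16 correlated best with their own letter. Library C had the lowest median log2 CPM over members outside the block in every condition. It was 6.19 in untrained vehicle, 6.93 in untrained corticosterone, 6.51 in trained vehicle and 7.11 in trained corticosterone. These values do not settle whether letters pair the libraries. Training under corticosterone, training in vehicle and the interaction gave 0 calls in all 28 alternatives, the replicate block included. Asking for 3 vehicle calls left 326 members. The log2 fold changes at chr9:119714561-119714887 and chr9:119723616-119723925 ran from -1.57 to 2.06 and from -1.47 to 1.34 when single libraries were left out, reversing without trained vehicle D. The median for corticosterone ran from 0.24 to 0.71 and that for training under corticosterone from -0.57 to -0.15. Alternatives on motifs and on distance to gene starts were not run, because they need an rn6 genome. Leaving out the chromosome 9 block was added after seeing the data. A median of 8 to 36 reads per member and library limits the size of difference that could be seen.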

Other observations

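Small groups of neighbouring members lay on several chromosomes, and their regions were named after their values were seen. On chromosome 14, 3 members lay within 20 kb of each other, and chr14:107440014-107440445 was the strongest under corticosterone, with mean signals of 171 CPM in vehicle and 423 CPM under corticosterone (log2 fold change 1.40, adjusted p = 0.137 by edgeR). Its neighbours chr14:107433606-107434009 and chr14:107441834-107442207 had log2 fold changes of 0.63 and 0.40. On chromosome 10, chr10:57367404-57368119 and chr10:57368973-57369451 had nearly equal means, 241 and 249 CPM in vehicle and 368 and 375 CPM under corticosterone. On chromosome 1, chr1:221205250-221206094 was the widest member and lay 84 bp from a pCREB region, the shortest such distance among members, with 493 CPM in vehicle and 655 CPM under corticosterone (adjusted p = 0.673). None of these regions passed the test.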
